A study of Homo sapiens with 15 samples.

Results

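The 5' part of the 28S ribosomal RNA gene, from its start to 1765 bp into it, was examined in bisulfite PCR libraries of 1 human lymphoblastoid line (B cells that grow without limit after infection with Epstein-Barr virus). Every cytosine was taken that held at least 10 reads with C or T in at least 2 libraries of a group. This gave 435 cytosines, of which 169 were CpG sites and 266 lay outside CpG (95 CHG and 171 CHH). Over the whole unit, 3505 cytosines were listed in any library, a count made without this read rule. The CpG sites run from 8023 to 9689. Positions are those of the human ribosomal DNA reference sequence used in the deposited files and count from the start of the pre-rRNA transcript. Among them lie a near-unmethylated stretch, 633 to 731 bp into the gene, and a downstream stretch, 1058 to 1626 bp into the gene. The gene boundary comes from the published layout of the reference sequence, not from the deposited files, and was not checked against the record.

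The control group had 6 libraries, numbered 1 to 6 here, and the exposed cells gave 3 libraries each at days 3, 7 and 14 after the onset of exposure to 5 µM hexavalent chromium for 24 hours. All were grown in the same standard medium, and no vehicle is named for the controls. The labels give the controls in 2 sets of 3 (replicates 1 to 3 and 4 to 6), while the protocol speaks of 2 biological replicates for each sample, and neither ties a library to a culture. What the 3 libraries of a group replicate is therefore uncertain. A p-value here reflects variation among libraries of this series, part or all of which could be technical. Control and exposed libraries alike come from 1 line, so the line itself is not replicated.

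The 28S RNA forms the catalytic core of the large ribosomal subunit. RNA polymerase I makes it, with 18S and 5.8S, from 1 precursor, and the gene is repeated in tandem clusters on the short arms of the acrocentric chromosomes. Only some copies are active in a cell, and CpG methylation of the promoter is commonly found on silent copies. A percent methylation at a site is thus an average over many copies. Bisulfite turns unmethylated cytosine into uracil, read as T, and leaves 5-methylcytosine as C. Cytosines outside CpG are mostly unmethylated in somatic human cells, and their share of C reads serves here as a local control for conversion. Hexavalent chromium enters cells through anion transporters and is reduced inside them, which damages DNA.

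Each library held between 28716783 and 95852393 C or T calls. The 435 cytosines took between 0.306% and 0.811% of these calls in the 9 control and day 3 libraries, and between 12.0% and 14.5% in the 6 libraries of days 7 and 14. Read depth along the gene also followed this split. From 9267 to the end of the downstream stretch the median depth per CpG site was 56 to 1231 reads in controls and 27 to 92 at day 3, but at least 54990 reads in every day 7 and day 14 library. In the near-unmethylated stretch the order was the other way, with medians of 2556 to 6001 reads in controls and 17, 32 and 1083 at day 7. No control or day 3 library had the coverage pattern of the later ones, so coverage pattern and time after exposure cannot be told apart. Over the whole unit, 0.674% to 1.38% of reads outside CpG were unconverted in control and day 3 libraries, and 5.45% to 8.36% at days 7 and 14.

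**Figure D1:**
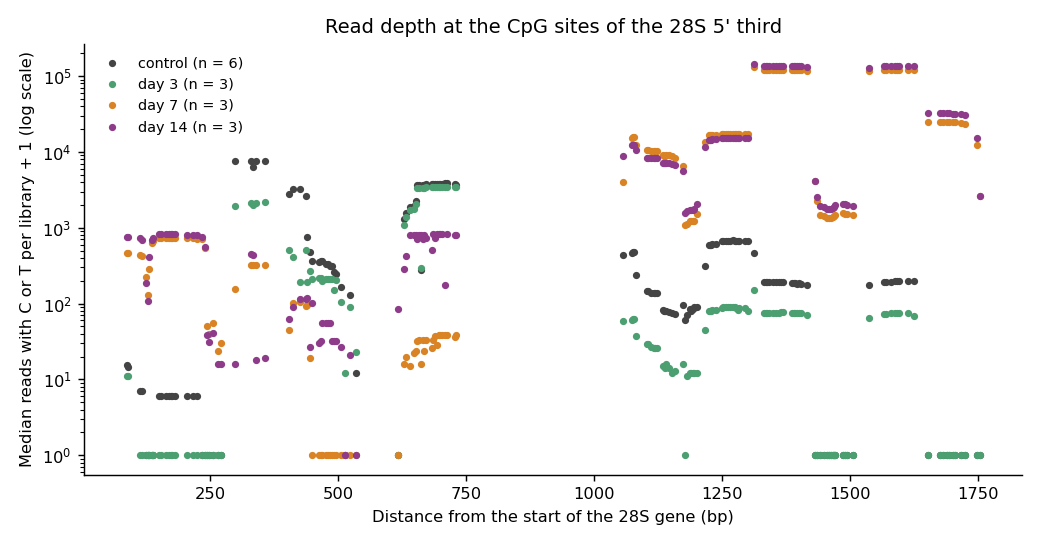
Median reads with C or T over the libraries of each group (log axis, 1 added; a site not listed in a library counts as 0 reads) at each of the 169 CpG sites, against distance from the start of the 28S gene. Days 7 and 14 lie far above control and day 3 over the last stretches and below them in the near-unmethylated stretch.

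The coverage rule decided which sites could be tested. Of the 169 CpG sites, 73 had at least 10 reads in all 15 libraries and entered the site test, edgeR's quasi-likelihood test on methylated and unmethylated counts over 851 such sites of the whole unit. These were 16 of 21 sites of the near-unmethylated stretch and 57 of 84 of the downstream stretch. None of the 53 sites before the former and none of the 11 after the latter could be tested. Between the stretches there was no CpG site with enough reads, and 1 cytosine outside CpG. At the 2-library level, 104 CpG sites were covered in all 4 groups, 34 in day 7 or day 14 only, and 2 in control or day 3 only.

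At day 3 no site of the gene's 5' part passed the threshold. edgeR called 0 of 73 (Benjamini-Hochberg adjusted p below 0.05), as it did over the whole unit (0% called, 0% higher and 0% lower). At an unadjusted p under 0.05 there were 4 of the 73, and limma and a quasi-binomial model also called 0. The sites with the lowest p outside the near-unmethylated stretch were 9323 and 9352. Site 9323 stood at 60.4%, 59.1% and 62.2% at day 3, above the control range of 39.2% to 54.9% (median 47.8%), and did not pass after adjustment (log2 ratio difference 0.77, SE 0.249, edgeR adjusted p = 0.929). Site 9352 stood at 53.0%, 42.1% and 52.2%, overlapping the control range of 31.9% to 46.6% (edgeR adjusted p = 0.945). Here and below, a log2 ratio is the log2 of methylated over unmethylated reads.

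The near-unmethylated stretch held 2 kinds of CpG site. The 16 tested sites were nearly unmethylated, with control means between 0.609% and 3.30%. Of the 5 sites left out of the test, 4 were not: 8590, 8601, 8608 and 8624 averaged 78.3% ± 6.75, 87.0% ± 3.66, 79.4% ± 3.03 and 93.4% ± 3.51 in controls (SD, n = 6). At the fifth, 8598, only a small part of the reads gave C or T in every control, so its level is not described. Site 8565, just before the stretch, was also high at 83.9% ± 4.73. These sites lie among near-unmethylated neighbours, such as 8587 (1.15% ± 0.976), 8594 (0.764% ± 0.640), 8604 (2.54% ± 3.50) and 8619 (3.30% ± 2.07). The high sites were picked out after their values were seen. The name of the stretch thus holds for 16 of its 21 covered sites, and the mean over all 21 was 17.6% ± 0.537 in controls and 17.7% ± 0.968 at day 3.

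**Figure D2:**
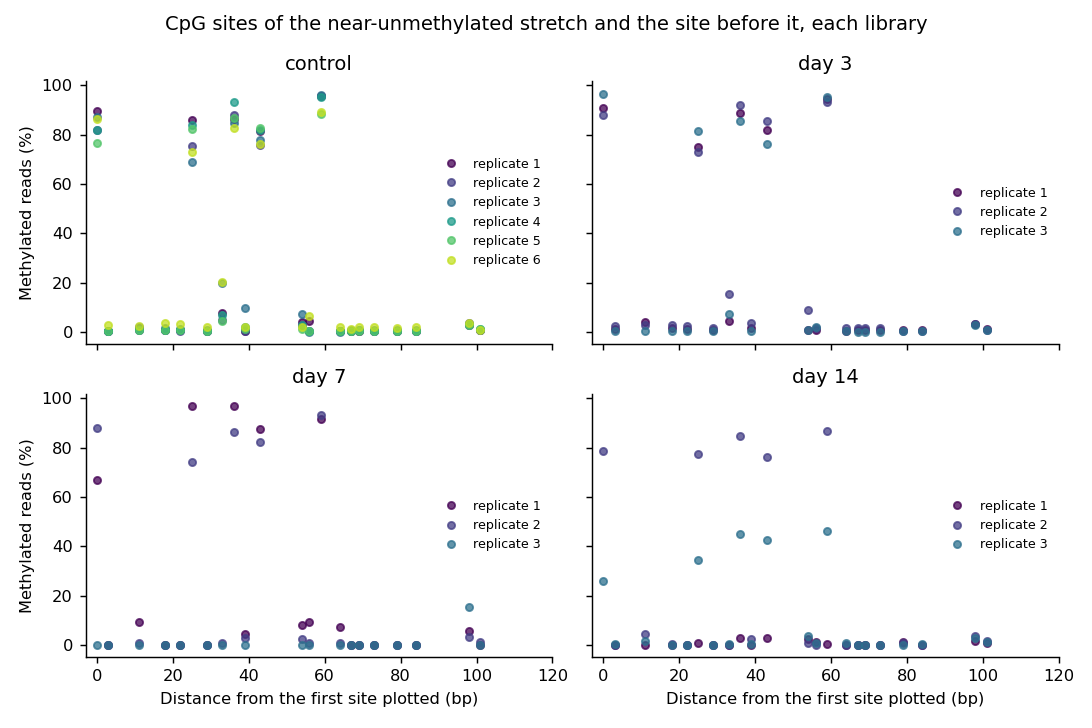
Percent methylated reads at 8565 and each CpG site of the near-unmethylated stretch in every library, 1 panel per group, against distance from 8565. In controls and at day 3 the 4 high sites and 8565 lie between 69.0% and 96.6%, and at day 14 replicate 1 has the 4 high sites at or below 2.86% while replicate 3 has them between 34.5% and 46.1%.

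The highly methylated sites diverged between libraries at day 14. Site 8624 read 95.8%, 95.6%, 96.0%, 95.2%, 88.5% and 89.3% in the controls, with at least 2568 reads in each, and 94.5%, 93.4% and 95.4% at day 3. At day 7 it stood at 91.7% of 36 reads in replicate 1 and 93.3% of 1083 reads in replicate 2, and replicate 3 had only 4 reads. At day 14 it read 0.415% of 482 reads in replicate 1, 86.9% of 740 in replicate 2 and 46.1% of 2964 in replicate 3. All 3 day 14 libraries lay below the lowest control, by amounts that differ far more than the controls do among themselves.

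Sites 8590, 8601 and 8608 behaved like 8624. Site 8590 stood at 0.889%, 77.4% and 34.5% at day 14, against 69.0% to 86.1% in controls, so replicate 2 lay within the control range. Site 8608 stood at 2.78%, 76.2% and 42.7%, against 76.0% to 82.9%. In the fit that asks for 2 libraries of each group, chosen as an alternative, all 4 sites were called lower at day 14 than in controls, for example 8624 (log2 ratio difference -4.53, SE 1.33, edgeR adjusted p = 0.00878), and none was called at day 7 (edgeR adjusted p 0.691 to 0.894). Site 8565 was not called at day 14 in this fit (edgeR adjusted p = 0.0578). In the main site test, 46.1% of all tested sites of the unit were called lower at day 14. Reads with neither C nor T also differed between libraries here. They made up 0% to 0.290% at these 4 sites in controls, but 40.0% to 95.6% in day 14 replicate 1, 9.65% to 9.99% in replicate 2 and 1.52% to 8.36% in replicate 3. At day 7 they were 2.70% to 3.13%, 41.0% to 41.6% and 76.5% in replicates 1 to 3. Their part in the fall was not tested.

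The 16 near-unmethylated sites stayed low throughout, with group means -1.64 to 5.02 points from control. Averaged over the 16 sites, methylation was 0.782% at the lowest, 0.998% at the median and 2.44% at the highest in controls. It was 1.25%, 2.21% and 0.618% at day 3, then 2.75%, 0.748% and 0.962% at day 7. The day 14 libraries had 0.442%, 0.819% and 0.711%, so the groups overlapped throughout. In controls and at day 3 these levels lay below the mean unconverted share outside CpG in the stretch, library by library. They lay above it in day 7 replicate 3 (0.962% against 0.769%) and day 14 replicate 1 (0.442% against 0.0773%). In the other day 7 and day 14 libraries they lay below it. Cytosines outside CpG in the stretch averaged 2.25% unconverted in controls (1.97% to 2.63%), against 1.33% over the 16 sites. This control share was uneven, at 3.43% for CHG and 0.335% for CHH cytosines. With the local unconverted share removed, the 16 sites averaged 0.241% in controls, 0.179% at day 3, 0.441% at day 7 and 0.301% at day 14. Every control and day 3 library had methylated reads at all 16 sites. At day 7, 10, 8 and 15 of the 16 sites had none, and at day 14, 11, 9 and 0.

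A site with no methylated reads meant little in 2 of the day 7 libraries. Their median depths were 32 and 17 reads, where a count of 0 allows up to 9.38% and 17.6% (3 reads of the total, counting error only). Replicate 2 of day 7 had a median of 1400 reads, which allows up to 0.214%. Site 8583 shows the pattern. In controls it read 0.692%, 0.563%, 1.57%, 0.737%, 0.636% and 3.54%, and at day 3 1.55%, 2.64% and 0.524%. At day 7 it had 0 methylated of 21, 1354 and 14 reads, and at day 14 0%, 0.338% and 0.0699%. Control 6 was the highest at this site, and the day 14 libraries all lay below every control.

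edgeR called 6 of the 16 sites lower at day 7 (8583, 8587, 8594, 8632, 8634 and 8644) and 7 lower at day 14 (8583, 8587, 8594, 8632, 8634, 8638 and 8649). None was called higher, and none was called between days 14 and 7 (0 at an unadjusted p under 0.05, limma 3 lower, quasi-binomial 0). Over the whole unit, 41.8% of tested sites were called lower at day 7 and 46.1% at day 14, so these shares lie near the background. Site 8587 had the smallest adjusted p at both times, 0.0193 and 0.00548, with 0 methylated reads in every day 7 library and 0%, 0% and 0.0645% at day 14, against 0.532% to 3.06% in controls. The falls depended on the method. After thinning every library to the same coverage, with the local unconverted share removed, or by the quasi-binomial model, no site was lower at either time. At day 7 none was lower without replicate 2, and limma called 3 of the 16 sites higher in place of 6 lower. At day 14 limma, either control set alone and the replicate block each gave 7 lower, as in the fit with all libraries, and the count was 3 without replicate 1 and 3 without replicate 3.

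The remaining named sites of the stretch did not pass. Site 8663, the highest near its end, stood at 5.71%, 3.38% and 15.4% at day 7 and 1.66%, 3.41% and 2.75% at day 14, against 2.62% to 3.77% in controls, and the 15.4% rests on 13 reads. The last CpG stood between 0.626% and 1.06% in controls and at 0.810%, 1.37% and 1.11% at day 14. At day 3 the lowest p in the stretch were those of its first CpG (1.16%, 2.50% and 0.432%, against 0.243% to 2.60% in controls) and 8644 (edgeR adjusted p = 0.945 for both). Site 8604 ranged from 0.257% to 9.53% in controls, wider than any group later.

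As a region, the 16 sites gave no stable call. The limma test of the mean log2 ratio, adjusted over 9 regions of the unit, gave 0.038 at day 3 (SE 0.787, adjusted p = 0.962) and 0.514 at day 7 (adjusted p = 0.525). At day 14 it gave -1.82 (SE 0.787, adjusted p = 0.0476), and day 14 against day 7 gave -2.34 (adjusted p = 0.0513). The added 0.5 count raises a ratio near 0 more at 17 reads than at 5000, so this measure moves with depth by construction. After thinning to equal coverage the day 14 difference was -0.13 (adjusted p = 0.583). Leaving out any 1 of the 9 control and day 14 libraries ended the call.

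The downstream stretch behaved differently: methylation was intermediate in controls and, as a mean over sites, higher at days 7 and 14. Over its listed CpG sites the 6 controls averaged 39.6% ± 5.53 (SD). The day 3 libraries averaged 47.5% ± 1.14, those of day 7 59.3% ± 3.48 and those of day 14 71.4% ± 1.94 (SD, n = 3 each). Over the 57 tested sites, which all libraries share, the means were 37.05% ± 4.49, 44.1% ± 0.870, 57.0% ± 3.73 and 69.5% ± 1.96 in the same order. Over summed reads of the listed sites, day 7 had 44.3%, 48.1% and 41.3%. It overlapped controls (28.2% to 43.6%) and day 3 (37.1% to 42.7%), while day 14 (54.9% to 61.3%) lay above every other library. limma on the region mean gave a log2 ratio difference of 0.47 at day 3 (SE 0.171, adjusted p = 0.140), 1.27 at day 7 (adjusted p = 9.1e-06) and 2.15 at day 14 (adjusted p = 6.8e-08). Day 14 exceeded day 7 by 0.89 (SE 0.197, adjusted p = 0.00167). Of its 84 CpG sites, 1 had a mean over 75% in controls (from 1 library), 17 at day 7 and 42 at day 14. At day 3 it was 7 of the 70 sites with a value, all from 9018 to 9109.

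**Figure D3:**
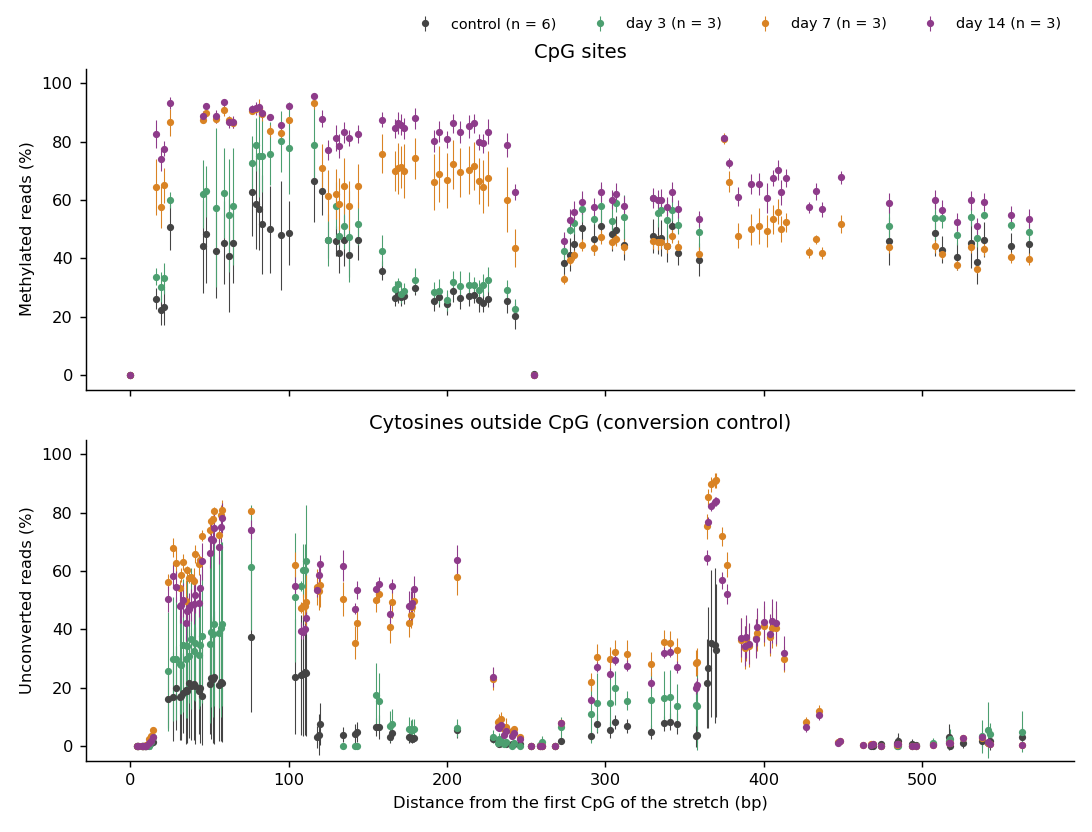
Mean percent methylated reads at CpG sites (upper panel) and mean percent unconverted reads at cytosines outside CpG (lower panel) of the downstream stretch, against distance from its first CpG; points are group means, bars the SD over libraries, and a site needs 2 libraries of a group. Day 7 and day 14 rise above control over the first part in both panels, and over the second part day 14 but not day 7 lies above control at CpG sites, while both lie above it over most positions outside CpG.

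Of the 73 tested sites, edgeR called 36 at day 7 (30 higher, 6 lower), where 64.2% of all tested sites were called, 22.3% higher. It called 61 at day 14 (54 higher, 7 lower), where 71% of all sites were called, 24.9% higher. All the higher calls lay in the downstream stretch, which held 30 of 57 at day 7 and 54 of 57 at day 14, and no site there was called lower. Between days 14 and 7, edgeR called 47 of the 73 sites higher at day 14, all in this stretch, and none lower (18.6% called over the unit, 13.9% higher and 4.7% lower). The median log2 ratio difference of the 57 sites was 0.46 at day 3, 1.65 at day 7 and 2.79 at day 14, where that of all 851 sites was 0.17, -0.45 and -0.49.

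The day 14 against day 7 count rests on single libraries. It was 9 without day 7 replicate 1, 9 without day 14 replicate 3 and 27 without day 14 replicate 2. It was 2 after thinning to equal coverage, where 2 of the 30 tested sites from 9009 to 9236 remained, and 0 when the spread was estimated from these 2 groups alone. The quasi-binomial model called 48.

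The stretch divides at site 9248 into 2 spans with separate time courses. These spans, and the narrower ones below, were drawn after the values were seen. From 9009 to 9236, all 30 tested sites were called higher at day 7 and all 30 at day 14, and 22 were called higher at day 14 than at day 7. From 9267 on, none of 25 was called at day 7 (0 at an unadjusted p under 0.05, limma 0, quasi-binomial 0), 24 were higher at day 14 and all 25 were higher at day 14 than at day 7. The median change from control was 42.0 points at day 7 and 54.4 at day 14 in the first span, and -2.72 and 12.3 points in the second. The difference between the spans was not tested.

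Sites at both ends of the first span stayed at or near 0 in every group. The first CpG of the stretch had no methylated read in any control (49 to 592 reads) or day 3 library and at most 0.121% at day 14. Site 9248 read 0% to 1.65% in controls, 0.0846% to 0.0979% at day 7 and 0.0924% to 0.137% at day 14, at 52317 reads or more in the later libraries. Both lie within 16 bp of sites whose day 7 mean was 43.5% or more, and edgeR called neither in any comparison. limma, on ratios with 0.5 added to each count, called the first CpG lower at days 7 and 14 (adjusted p = 0.0396 and 0.0265), although no control had a methylated read there.

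From 9009 to 9236, mean methylation over the listed sites was 29.0% at the lowest, 36.0% at the median and 46.0% at the highest in controls. It was 43.2%, 50.4% and 46.0% in the day 3 libraries. At day 7 it was 67.2%, 78.4% and 75.6%, and at day 14 86.0%, 82.1% and 86.3%. Every day 7 library lay above every control and day 3 library, and every day 14 library above every day 7 library.

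Sites 9162, 9164 and 9210 were the sites with the largest rise in percent from control to day 14. Site 9162 read 26.0%, 32.5%, 27.7%, 27.2%, 25.1% and 25.6% in controls and 30.6%, 29.2% and 33.3% at day 3. It then read 61.1%, 78.0% and 73.5% at day 7, and 88.2%, 82.0% and 88.7% at day 14. The groups do not overlap after day 3, and the fitted difference at day 14 was 4.10 (SE 0.278, edgeR adjusted p = 1.73e-08). Site 9164 (85.7% ± 3.59 at day 14, 24.2% to 30.8% in controls) and site 9210 (86.2% ± 3.29, 24.3% to 31.8%) had similar values (edgeR adjusted p = 1.67e-08 for both). Site 9207, one of the deepest, went from 27.0% ± 3.49 to 85.2% ± 3.94.

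Sites 9047, 9052 and 9055 had the largest rises in percent from control to day 7. Site 9052 read 49.7%, 64.2%, 37.5%, 58.2%, 28.1% and 34.4% in controls, on 16 to 194 reads, and 51.4%, 80% and 55.6% at day 3, on 18 to 35 reads. At day 7 it read 89.2%, 92.9% and 90.1%, and at day 14 94.7%, 93.4% and 92.3%. The controls spread far more widely here than either later group, and the day 7 difference was 3.42 (SE 0.410, edgeR adjusted p = 2.6e-06). Sites 9047 and 9055 averaged 42.5% ± 16.2 and 40.9% ± 19.3 in controls and 87.7% ± 1.41 and 87.3% ± 0.971 at day 7.

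Sites 9009, 9231 and 9236 rose most from day 7 to day 14. Site 9009 stood at 21.2% to 29.8% in controls, then at 53.7%, 71.9% and 67.6% at day 7 and 84.5%, 77.0% and 86.0% at day 14 (difference from day 7 1.39, SE 0.316, edgeR adjusted p = 0.0102). Site 9236, the last of the span, remained the lowest at day 14 with 62.8%, 60.1% and 65.4%, after 36.4%, 49.2% and 44.8% at day 7 (edgeR adjusted p = 0.0133). For 9231 the day 7 values were 47.1%, 66.8% and 66.4% and the day 14 values 78.6%, 74.7% and 83.1%. At all 3 sites day 7 replicate 1 was the lowest of its group, and replicate 2 was the lowest of day 14.

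From 9267 on, mean methylation was 40.0% at the lowest, 43.3% at the median and 53.6% at the highest in controls, and 54.7%, 49.1% and 55.0% at day 3. At day 7 it was 46.4%, 49.0% and 43.7%, within the control range. At day 14 it was 58.4%, 59.4% and 63.1%, but these means use all 39 listed sites in the later libraries and control 4, and 25 in the rest. Over the 25 tested sites day 14 had 53.8%, 57.7% and 60.4% and day 7 had 42.6%, 45.0% and 40.8%, so day 14 lay above every control (at most 52.1%) and day 7 library but overlapped day 3. The 24 sites called higher at day 14 had log2 ratio differences of 0.51 to 0.88, smaller than the 2.42 to 4.16 of the first span. Site 9323 stood at 46.1%, 48.5% and 43.1% at day 7 and 57.1%, 61.2% and 64.0% at day 14. The last site of the stretch read 40.0% to 52.1% in controls, 39.1%, 41.9% and 38.0% at day 7 and 50.2%, 53.7% and 56.7% at day 14 (edgeR adjusted p = 0.0371), so its day 14 range overlaps the controls. Only 9267 was not called at day 14 (edgeR adjusted p = 0.0581). The quasi-binomial model called none of the 25 sites at day 14, and after thinning to equal coverage edgeR called 8.

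Cytosines outside CpG also had more unconverted reads at days 7 and 14 than in controls. From 9009 to 9236, the mean unconverted share was 1.24% to 26.9% in controls (median 13.1%), 6.96%, 37.6% and 24.7% at day 3, 49.9% to 51.9% at day 7 and 44.6% to 50.7% at day 14. From 9267 on it was 1.62% to 11.6% in controls, 4.59% to 14.6% at day 3, 24.1% to 29.5% at day 7 and 23.1% to 27.1% at day 14. From day 7 to day 14 the group mean outside CpG went from 50.7% to 47.6% in the first span and from 27.5% to 25.2% in the second, a difference that was not tested, while CpG methylation rose in both.

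The relation differed within the first span. Positions 9018 to 9109 were cut out by the high day 7 means of their sites, and 9152 to 9236 by a gap between sites. The high day 7 level of the former was thus set by that choice. From 9018 to 9109, controls 1, 2 and 4 had 53.4%, 64.9% and 65.4% methylated reads with 26.5%, 43.8% and 39.6% unconverted outside CpG. Controls 3, 5 and 6 had 42.1%, 31.6% and 38.9% with 0%, 1.05% and 16.9%. At day 3 the same order held, from 54.6% with 11.8% to 81.4% with 59.3%. Day 7 had 87.0% to 89.4% with 63.2% to 65.2%, and day 14 had 89.4% to 91.8% with 50.8% to 58.9%. From 9152 to 9236 the controls were even, at 23.9% to 30.6% with 1.01% to 3.52% unconverted. There day 7 had 58.2% to 74.0% with 25.2% to 29.4%, and day 14 had 78.7% to 85.3% with 26.2% to 31.0%.

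**Figure D4:**
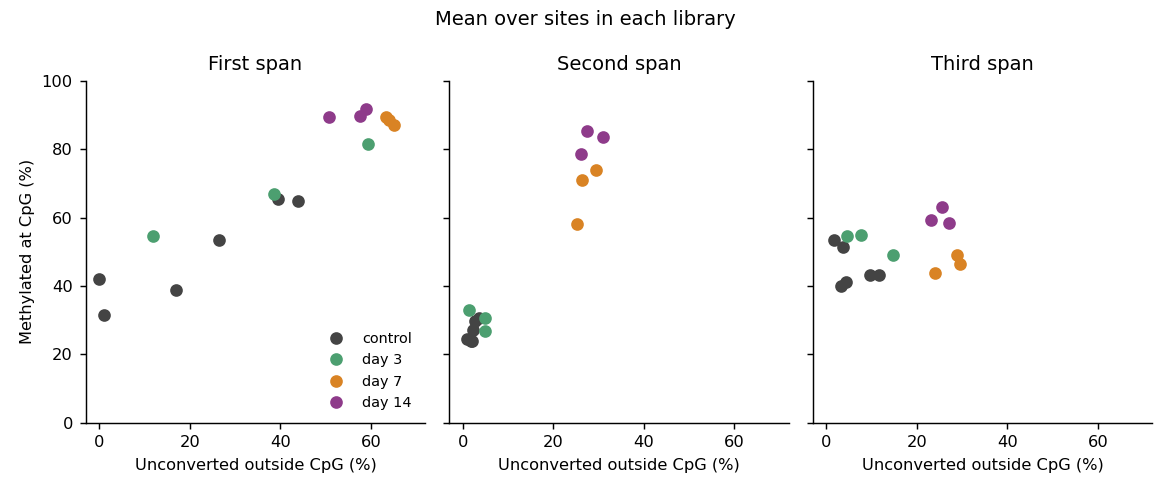
Mean percent methylated reads at CpG sites against mean percent unconverted reads outside CpG, 1 point per library, for positions 9018 to 9109, 9152 to 9236 and 9267 to the end of the stretch, from left to right. At the left, the 3 controls with the most unconverted reads are also the 3 with the most methylated reads, and in the other panels days 7 and 14 overlap outside CpG but not at CpG sites.

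Removing the local unconverted share, measured on reads summed within 100 bp of each site, changed the second span most. Summing lets the deepest cytosines weigh most, and the 100 bp can reach past the end of a span. At day 7 the median CpG depth averaged 9704 reads from 9009 to 9236 and 103300 from 9267 on (n = 3). How far the order of the spans depends on this weighting was not tested. From 9009 to 9236 the mean became 29.2% ± 3.94 in controls, 62.4% ± 8.36 at day 7 and 78.8% ± 3.19 at day 14, with 27 of 30 sites higher at day 7 and 30 at day 14 (edgeR). From 9267 on it became 44.3% ± 5.38 in controls, 29.9% ± 1.79 at day 7 and 49.7% ± 4.87 at day 14, with 16 of 25 sites now lower at day 7 and 9 higher at day 14. Day 14 still exceeded day 7 at all 25. The part of conversion in the differences from control was not tested beyond this subtraction, and no control library reached the unconverted share of the later ones over 9009 to 9236.

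Part of the stretch was visible only in later libraries. From 9368 to 9442, 14 CpG sites were listed in all day 7 and day 14 libraries and, among the rest, only in control 4. That control had 56.3% methylated reads at a median of 22 reads, with 0.793% unconverted outside CpG. Day 7 had 53.1%, 56.2% and 49.0% with 25.0% to 34.0% unconverted, and day 14 had 66.5%, 62.5% and 68.0% with 25.0% to 34.9%. The first site, 9368, was the highest at 80.9% ± 1.85 and 81.4% ± 0.889 (SD, n = 3 each).

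After the stretch, 11 CpG sites from 9587 to 9689 were highly methylated in the later libraries, where few reads outside CpG were unconverted. Day 7 had 82.9%, 85.1% and 81.9% with 2.24% to 2.89% unconverted, and day 14 had 84.5%, 83.3% and 89.0% with 1.63% to 2.80%. The 2 groups overlapped. Among control and day 3 libraries, only control 6 listed any of these sites, at 93.0% over 7 sites with a median of 10 reads. Site 9625 went from 77.2% ± 1.11 at day 7 to 79.9% ± 3.00 at day 14 and site 9628 from 82.5% ± 0.591 to 85.1% ± 3.40, with no control value for either. Site 9611 stood at 79.1% ± 2.03 and 82.3% ± 3.22, and at 90.9% of 11 reads in control 6.

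Before the near-unmethylated stretch, the 26 CpG sites from 8023 to 8207 gave no firm control level. They had medians of 10 to 14.5 reads in the 5 controls that listed any, with means of 59.8% to 100% over 1 to 18 sites. Day 7 had 84.7%, 75.02% and 78.1% with 30.4% to 45.2% unconverted outside CpG, and day 14 had 71.4%, 74.3% and 69.2% with 11.9% to 21.1%. The day 14 libraries all lay below the day 7 libraries in both measures.

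The 25 sites from 8234 to 8471 were well covered in controls, with means of 17.2% to 30.7% (median 23.1%), and at day 3 with 34.8%, 34.7% and 31.2%, above every control. Over summed reads the levels were far lower, at 1.11% to 8.44% in controls and 17.1%, 19.2% and 9.11% at day 3, still above every control. Reads with neither C nor T made up 2.49% to 8.06% in controls and 1.89%, 10.01% and 31.4% at day 3, and their part in the difference was not tested. All 25 lacked a listed value in day 7 replicate 3 and day 14 replicate 1. The other later libraries disagreed with each other, at 8.51% over 11 sites and 36.0% over 23 at day 7, and 22.4% and 38.3% over 23 at day 14, where 0.652%, 12.5%, 31.6% and 46.9% of reads gave neither C nor T. Of 14 sites before the near-unmethylated stretch with 2 libraries in each group, 1 was called, higher, at day 7 and none at day 14 (edgeR). In the main site test, on sites covered in every library, 64.2% of all sites were called at day 7 (22.3% higher) and 71% at day 14. These shares thus come from another set of sites.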

How the data were processed

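Genomic DNA of control (n = 6) and exposed cells (n = 3 at each of days 3, 7 and 14) was bisulfite converted, amplified with a primer panel and sequenced as paired ends on an Illumina HiSeq, per the labels' protocols. Tools named in the submitters' processing notes are methylKit, BSMAP 2.90, Trim Galore and SAMtools 1.3.1, and their builds are hg19 and GRCh37, while positions lie on 1 ribosomal DNA reference sequence. Per the file headers, each deposited file gives a read depth, counts of C and T reads and the methylated fraction per cytosine, and the lowest listed depth was 10. Counts were used as deposited, and the authors' fraction equals C over C plus T reads. It is printed as percent.

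Cytosines from 7935 to 9700 were taken. The near-unmethylated stretch is 8568 to 8666 and the downstream stretch 8993 to 9561.

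The CpG sites with at least 10 C or T reads in all 15 libraries (851 over the unit) were fitted together with edgeR 4.0.16 (R 4.3.3), with an effect per library and a methylation term per group. P-values were adjusted by Benjamini-Hochberg over all 851 sites, with a threshold of 0.05. Tested sites with gaps of up to 300 bp formed 9 regions, tested with limma 3.58.1 on the mean log2((methylated + 0.5)/(unmethylated + 0.5)). Scripts were tested on simulated data. The members, spans and lists were chosen with earlier results of these data known. The spans inside the downstream stretch were cut by level and gap after the values were seen, and that from 9018 to 9109 by its high day 7 means. Sites named by rule were the largest called rises and falls in each comparison (the lowest p where none was called), the first, last and deepest of each stretch, and 3 sites listed in some groups only. Others were chosen after their values were seen. Intervals and floors cover counting error only, since PCR reads are not independent molecules. Alternatives were coverage minimums of 30 and 100 reads, 2 libraries per group, limma, a quasi-binomial model, a pseudocount of 2 and summed reads. Further ones were removal of the local unconverted share, thinning to equal coverage, each control set, only the compared groups and the replicate number as a block. Each library was also left out in turn, in the comparisons that hold its group.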

Additional observations from a re-analysis of the deposited data

Results flagged for a closer look

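In 8 of 37 sets of control values checked (named sites and means of stretches), 1 library stood apart from the others by Dixon's test, which chance does in about 1 of 20 groups. Control 6 was the highest at the first site of the near-unmethylated stretch (2.60%) and at 8583 (3.54%), 8587 (3.06%), 8594 (2.02%) and 8634 (1.94%), which lie in the same stretch. Control 3 was the highest at 8604 (9.53%), control 2 at 9162 (32.5%) and control 1 at 9248 (1.65%).

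The downstream stretch exceeded control by more at day 14 than at day 7, with a difference between the 2 of 0.89 in the mean log2 ratio (limma adjusted p = 0.00167). Both comparisons use the same controls.

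Reads with neither C nor T at the CpG sites of the near-unmethylated stretch averaged 17.7% at day 7 and 23.4% at day 14, against 5.14% over the same sites in controls (4.84% to 5.59%). In controls most of them lay at 1 site, 8598, where 89.4% to 95.5% of reads gave neither. That site had 81.8%, 86.5% and 11.8% at day 7 and 0.125%, 80.6% and 48.0% at day 14. The methylation values leave out all reads with neither C nor T.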

How the results depend on the processing

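The number of called sites depended on coverage. At 30 reads in every library, 30 of the 73 sites remained and edgeR called 21, 28 and 27 (day 7, day 14, and day 14 against day 7). At 100 reads 1 site remained and the count was 0 in each. The day 14 count was 30 by the quasi-binomial model, 39 with the unconverted share removed and 38 after thinning. Day 14 against day 7 gave 2 calls after thinning and 0 with only these groups. Leaving out a library gave 30 to 37 calls at day 7, 54 to 62 at day 14, 9 to 46 between them and 0 at day 3.

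The downstream stretch as a region kept its direction and call except at 100 reads, where 1 site was left (-1.32 at day 7, -1.12 at day 14 and 0.19 between them). Without 1 library its differences ran from 0.40 to 0.54, 1.14 to 1.40, 2.08 to 2.22 and 0.76 to 1.01 for days 3, 7 and 14 and day 14 against day 7. The near-unmethylated region changed sign at day 3 with summed reads (-0.092), the unconverted share removed (-0.032) and the second control set (-0.17), and at day 7 with summed reads (-0.072). With the unconverted share removed it gave 4.78 at day 7 (called), 1.94 at day 14 and -2.84 between them (called). At day 14 its call was lost with 2 libraries per group (-1.02), a pseudocount of 2 (-0.80), thinning (-0.13) and either control set (-1.62 and -2.03). A pseudocount of 2 gave -2.66 for day 14 against day 7 (called). Leaving out a library gave -0.40 to 0.61, -0.21 to 1.91, -2.003 to -1.55 and -3.73 to -1.62. The fitted value of 4 sites near 0 changed sign with the unconverted share removed: 8587 (1.36 at day 14, 2.19 at day 7), 8594 (1.68 at day 14), 8634 (2.57 at day 7) and 8644 (0.088 at day 3). Site 8644, day 14 against day 7, ran from -0.76 without day 7 replicate 2 to 5.42 without day 14 replicate 3. The causes were not tested.

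Same-numbered replicates did not deviate together (r over 0.1 in 4 of 27 pairs, range -0.27 to 0.17), so the numbers were not taken as pairs. With the replicate number as a block, 35, 60 and 45 sites were called, and the near-unmethylated region at day 14 stayed at -1.82 (adjusted p = 0.0508).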
